A study of Mus musculus with 18 samples.

Results

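A panel of 34 genes that mark the macrophages of adipose tissue was followed through epididymal and inguinal fat of mice. The panel was taken as a list of gene symbols and matched to the gene names of the deposited tables. All 34 were found among the 24091 gene symbols of the epididymal table and among the 51826 Ensembl identifiers of the inguinal table, and all 34 passed the filters on low values in both depots. By role the panel holds the growth factor Csf1 and its receptor Csf1r, 11 general macrophage and myeloid genes, 4 Fc receptor and adaptor genes, the 3 chains of complement C1q, 6 scavenger, lectin and alternative activation genes, 3 resident macrophage genes, 3 lipid-associated genes and 2 monocyte genes.

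Macrophages are the most studied immune cells of white fat. Resident macrophages clear dying adipocytes, are maintained by CSF1 acting through its receptor, and carry scavenger receptors such as CD163. Monocytes that enter from the blood through the chemokine receptor CCR2 give rise to further macrophages, and in expanding or obese fat some of these surround lipid from dying adipocytes and express Trem2, Gpnmb and Itgax. In bulk tissue, fewer macrophages and less RNA of these genes per macrophage cannot be told apart.

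RNA of C57BL/6 mice was sequenced in 18 libraries, with 3 in each of 6 groups. The groups were shiftwork eWAT (epididymal fat, a visceral depot) at ZT12, control eWAT at ZT12, shiftwork eWAT at ZT3, control eWAT at ZT3, shiftwork iWAT (inguinal fat, a subcutaneous depot) at ZT3 and control iWAT at ZT3. Control mice lived on a fixed light cycle with 12 h of light a day. Shiftwork mice spent 4 days of every week on that cycle and 3 days on its reverse, for 24 weeks. ZT is the time in hours since lights-on of the regular cycle, and the labels do not say on which day of the rotating week the tissue was taken. The labels give no age, and they do not say whether replicates are separate animals, so p-values measure the spread between these samples only.

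Between 20352008 and 72276733 reads were assigned to genes in an eWAT library, and between 28544338 and 55639501 in an iWAT library. The fewest reads of any of the 34 genes in a library were 49 for Timd4 in eWAT and 43 for Cx3cr1 in iWAT, and such counting limits cover counting error only. Levels in eWAT are given as CPM, read counts scaled to the library's TMM-adjusted size, and levels in iWAT as the authors' normalised signal. Several libraries held transcripts of other tissues. Summed CPM of 10 vas deferens markers was 11511, 16 and 12114 in eWAT ZT3 control replicates 1 to 3 and at most 61.8 in the other eWAT libraries, with Akr1b7 the most abundant at 9039 and 9325 CPM in replicates 1 and 3. Summed CPM of 10 spermatid markers was 5817 in eWAT ZT3 shiftwork replicate 3, 41.1 in ZT3 control replicate 2 and at most 78.6 elsewhere in eWAT. Intestine markers summed to 335 CPM in eWAT ZT12 shiftwork replicate 2. In iWAT, the summed signal of 10 B and plasma cell markers was 1208, 1981 and 325 in shiftwork replicates 1 to 3, against 41247, 66134 and 1037 in control replicates 1 to 3, and skeletal muscle markers summed to 2149100 in shiftwork replicate 1.

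Per length of transcript, the same few genes led the panel in both depots. Lyz2, which encodes lysozyme of myeloid cells, and Retnla, a secreted protein of alternative activation, held the first and second rank of the 34 in all 6 groups. Lyz2 averaged 481 ± 261 FPKM in ZT12 shiftwork eWAT, 377 ± 82.1 FPKM in ZT12 control eWAT, 174 ± 56.1 FPKM in ZT3 shiftwork eWAT and 149 ± 14.6 FPKM in ZT3 control eWAT (SD, n = 3 each, from the authors' deposited log2 FPKM). In iWAT it averaged 488 ± 238 RPKM under shiftwork and 544 ± 226 RPKM in controls. The 3 chains of C1q, the complement subunit that binds dying cells, held ranks 3 to 5 in all 6 groups. At the low end of eWAT stood Timd4, Ms4a7 and Cx3cr1, which took ranks 32 to 34 in every eWAT group, with Timd4 at 1.13 ± 0.141 FPKM in ZT3 controls. The defining macrophage genes Adgre1, Cd68 and Csf1r were at 34.6 CPM or more in every eWAT library, and the FPKM and RPKM values of the 2 depots were normalised separately and were not tested against each other.

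In control eWAT the panel stood higher at ZT12 than at ZT3. Genes of the panel can rise and fall together in a library, so counts of them are not counts of independent results. Of the 34 genes, 33 had a positive log2 fold change, as 48.7 percent of all genes did, the median was 1.28 and the range ran from -0.12 for Csf1 to 2.29 for Trem2, against a median of -0.01 over all 15141 genes tested. By edgeR's quasi-likelihood test with Benjamini-Hochberg adjustment over all genes, 8 of the 34 rose and none fell, where 3.69 percent of all genes were called and 2.93 percent were called higher. The 8 were Csf1r, Cd14, Cd84, Cd86, Ms4a7, Fcgr3, Tyrobp and Ccr2, with adjusted p from 0.0305 to 0.0487. At an unadjusted p under 0.05 the count was 28 of 34, where 22.4 percent of all genes passed. DESeq2 called 26 of the 34, all 8 among them, where it called 15.3 percent of the genes it tested, and the genes it did not call were Csf1, Itgam, Aif1, Msr1, Mrc1, Retnla, Timd4 and Cx3cr1. In 27 genes all 3 ZT12 control libraries lay above all 3 ZT3 control libraries, which held for 19.3 percent of all genes tested, and 0 genes lay below (13.6 percent).

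Among the growth factor pair, the receptor moved and the ligand did not pass the test. Csf1r (chr18:61105572-61131139, plus strand, GRCm38), the receptor that macrophages need to survive, stood at 335, 363 and 225 CPM in ZT12 controls, against 129, 136 and 114 CPM in ZT3 controls. All ZT12 libraries lay above all ZT3 libraries, and Csf1r rose by 1.28 ± 0.27 on the log2 scale (SE, edgeR adjusted p = 0.0349, a fold of 2.43). Csf1, its ligand, which stromal cells also make, stood at 113, 118 and 76.4 CPM in ZT12 controls, against 85.8, 123 and 127 CPM in ZT3 controls. The groups overlapped, and its log2 fold change was -0.12 ± 0.22 (edgeR adjusted p = 0.817).

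All 11 general macrophage and myeloid genes had a positive fold change, with a median of 1.38, and 4 of them rose. Cd14, a co-receptor for bacterial lipopolysaccharide, stood at 23, 27 and 17.4 CPM in ZT12 controls, against 9.34, 9.69 and 9.13 CPM in ZT3 controls (log2 fold change 1.26 ± 0.25, edgeR adjusted p = 0.0305). Ms4a7, a four-span membrane protein of macrophages, stood at 20.4, 26.4 and 14.2 CPM in ZT12 controls, against 7.09, 6.77 and 7.42 CPM in ZT3 controls (1.52 ± 0.33, edgeR adjusted p = 0.0382). In both genes the ZT3 controls lay close together and the 3 ZT12 controls were spread above them. Cd84, a self-binding receptor of the SLAM family, stood at 47.1, 83.5 and 32.4 CPM in ZT12 controls, against 17.8, 21 and 14.3 CPM in ZT3 controls (1.62 ± 0.38, edgeR adjusted p = 0.0487). Cd86, a co-stimulatory ligand for T cells, stood at 14.9, 15.5 and 14 CPM in ZT12 controls, against 7.44, 8.57 and 8.74 CPM in ZT3 controls (0.84 ± 0.17, edgeR adjusted p = 0.0335). Cd86 had the smallest fold change of the 8 genes and no overlap between the groups. The pan-macrophage genes Mpeg1, a pore-forming protein (1.71 ± 0.44), Cd68, a lysosomal glycoprotein (1.70 ± 0.42), Adgre1, which encodes F4/80 (1.52 ± 0.38), and Lyz2 (1.35 ± 0.35) had fold changes as large but edgeR adjusted p from 0.0528 to 0.0618. Itgam, the CD11b integrin chain that neutrophils share, differed by 0.98 ± 0.38, and Aif1, which encodes IBA1, by 0.62 ± 0.87.

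**Figure D1:**
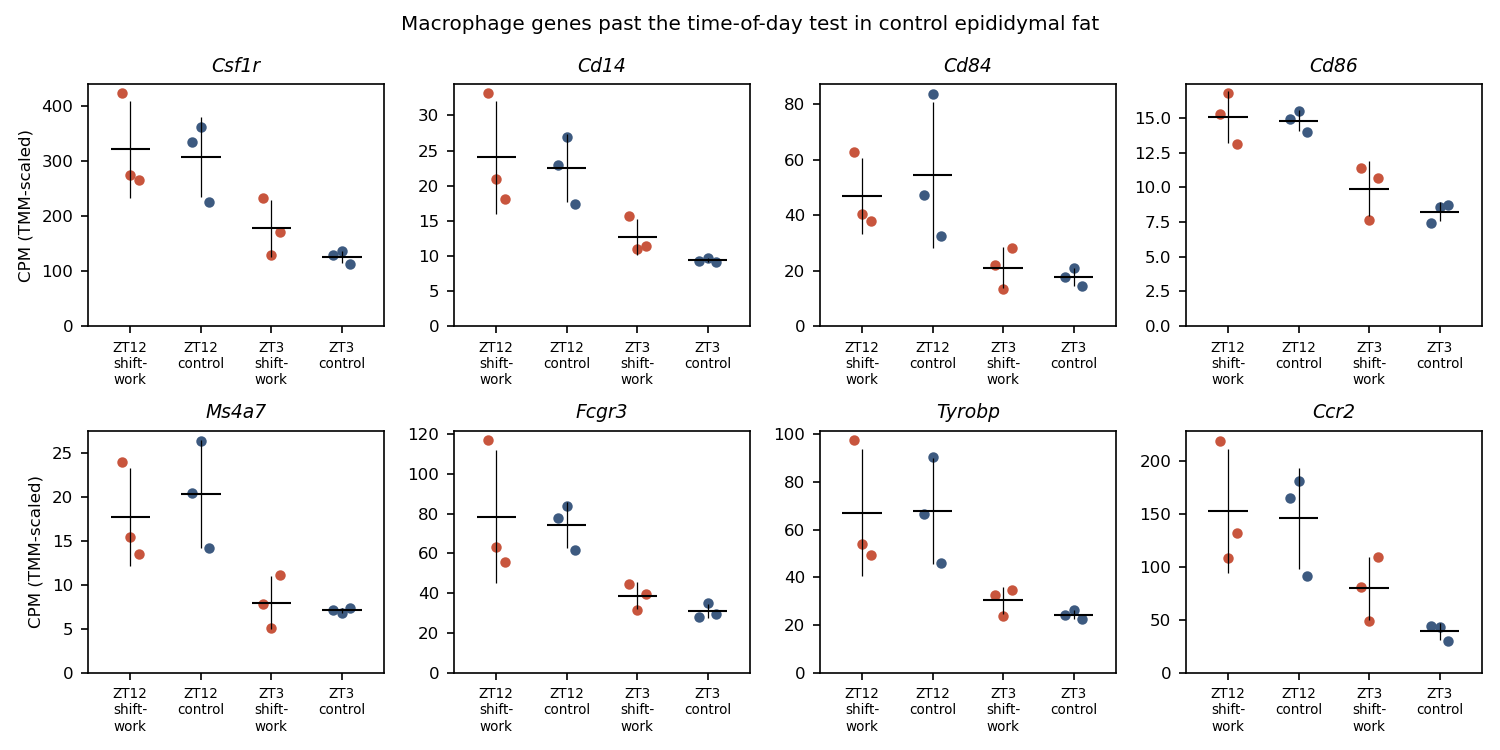
CPM of the 8 macrophage genes past the time-of-day test in control eWAT, shown in all 4 eWAT groups. Points are libraries, the long line is the mean and the thin line its SD (n = 3). The 3 ZT12 control points lie above the 3 ZT3 control points in every panel, as for Csf1r at 225 to 363 CPM against 114 to 136 CPM.

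Of the 4 Fc receptor and adaptor genes, 2 rose. Fcgr3, a low-affinity receptor for IgG, stood at 77.9, 83.7 and 61.5 CPM in ZT12 controls, against 28.1, 34.8 and 29.7 CPM in ZT3 controls (log2 fold change 1.27 ± 0.27, edgeR adjusted p = 0.0362). Tyrobp, the adaptor DAP12, through which TREM2 signals, stood at 66.7, 90.4 and 46 CPM in ZT12 controls, against 24.4, 26.1 and 22.7 CPM in ZT3 controls (1.47 ± 0.30, edgeR adjusted p = 0.0331). The groups did not overlap in either gene. Fcer1g, the common gamma chain of Fc receptors (0.96 ± 0.29), and Fcgr1, the high-affinity IgG receptor (1.29 ± 0.41), had edgeR adjusted p of 0.0892 and 0.0969, and Fcgr1 overlapped between the groups. Fcgr3 has a close relative in Fcgr2b, so its reads may be shared.

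C1q chains and most scavenger and lectin genes pointed the same way without passing the test. C1qa, C1qb and C1qc differed by 1.10 ± 0.32, 1.22 ± 0.34 and 1.10 ± 0.30, with edgeR adjusted p from 0.0715 to 0.0795 and no overlap between the groups. C1qb stood at 215, 262 and 141 CPM in ZT12 controls, against 77.1, 99.7 and 88.8 CPM in ZT3 controls. Of the 6 scavenger, lectin and alternative activation genes all were positive, with a median of 0.74. Clec7a, the receptor for fungal beta-glucan (1.34 ± 0.35), had an edgeR adjusted p of 0.0604, and Clec10a, a galactose-binding lectin (0.77 ± 0.23), and Mertk, a receptor for the uptake of dead cells (0.71 ± 0.22), had 0.0895 and 0.0941. Mrc1, the mannose receptor (0.76 ± 0.33), Msr1, a scavenger receptor for modified lipoproteins (0.62 ± 0.53), and Retnla (0.34 ± 0.35) overlapped between the groups.

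The resident, lipid-associated and monocyte genes differed in how evenly the ZT12 libraries were raised. Ccr2, the receptor that brings monocytes into tissue, stood at 165, 181 and 91.6 CPM in ZT12 controls, against 44.2, 43.1 and 29.6 CPM in ZT3 controls. It rose by 1.90 ± 0.38 on the log2 scale (edgeR adjusted p = 0.0305, a fold of 3.74), with no overlap. Cx3cr1, the fractalkine receptor, stood at 6.51, 15.8 and 3.16 CPM in ZT12 controls, against 7.84, 2.63 and 10.7 CPM in ZT3 controls, overlapping widely (0.26 ± 0.71). Trem2, a lipid-sensing receptor, stood at 18.3, 42.4 and 9.72 CPM in ZT12 controls, against 5.3, 5.75 and 3.32 CPM in ZT3 controls. Gpnmb, a membrane glycoprotein of lipid-laden macrophages, stood at 74.3, 351 and 66.2 CPM in ZT12 controls, against 39, 49.1 and 24.5 CPM in ZT3 controls. Replicate 2 was far above the other ZT12 controls in both genes, and without it the Trem2 and Gpnmb groups still did not overlap. Their log2 fold changes of 2.29 ± 0.61 and 2.13 ± 0.68 and that of Itgax, the CD11c integrin chain (1.96 ± 0.50), were the 3 highest of the panel, with edgeR adjusted p of 0.0668, 0.102 and 0.0572. Cd163, a scavenger receptor for haemoglobin and haptoglobin (1.37 ± 0.42), and Folr2, a folate receptor (1.42 ± 0.46), had 0.0949 and 0.107 with no overlap. Timd4, a phosphatidylserine receptor of long-lived resident macrophages, overlapped (0.21 ± 0.46).

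The count of 8 depended on single libraries. Counts over all genes, 559 in the fit with every library, moved as well. No panel gene was called without ZT12 shiftwork replicate 2 (144 of all genes), ZT12 control replicate 1 (1) or 2 (4), or ZT3 control replicate 1 (173) or 3 (3), a panel count of 0 each time. The panel count was 1 without ZT12 shiftwork replicate 3 (155 of all genes), 2 without ZT12 control replicate 3 (121) and 3 without ZT3 shiftwork replicate 1 (276). It was 6 without ZT3 control replicate 2 (1208 of all genes), 7 without ZT3 shiftwork replicate 2 (423), 11 without ZT12 shiftwork replicate 1 (396) and 25 without ZT3 shiftwork replicate 3 (2744). The 8 genes stayed positive in each of these fits, with log2 fold changes from 0.77 to 2.13. With the 3 ZT3 libraries that carried vas deferens or spermatid transcripts left out, 0 of the 34 and 619 of all 15474 genes tested were called, the panel's median was 1.07 and the 8 genes had edgeR adjusted p from 0.101 to 0.21. That fit keeps ZT3 control replicate 2 as the sole ZT3 control and assumes that it varies like the other groups. In this library, at 16 CPM of vas deferens markers, the 34 genes summed to 1925 CPM, and in the ZT12 eWAT libraries to 2724 to 5681 CPM. ZT3 shiftwork replicates 1 and 2, at 5.75 and 2.92 CPM of vas deferens markers, summed to 2653 and 1673 CPM. The sum of 2653 CPM lay close to the lowest ZT12 library, and the part of foreign transcripts in the time difference was not tested.

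**Figure D2:**
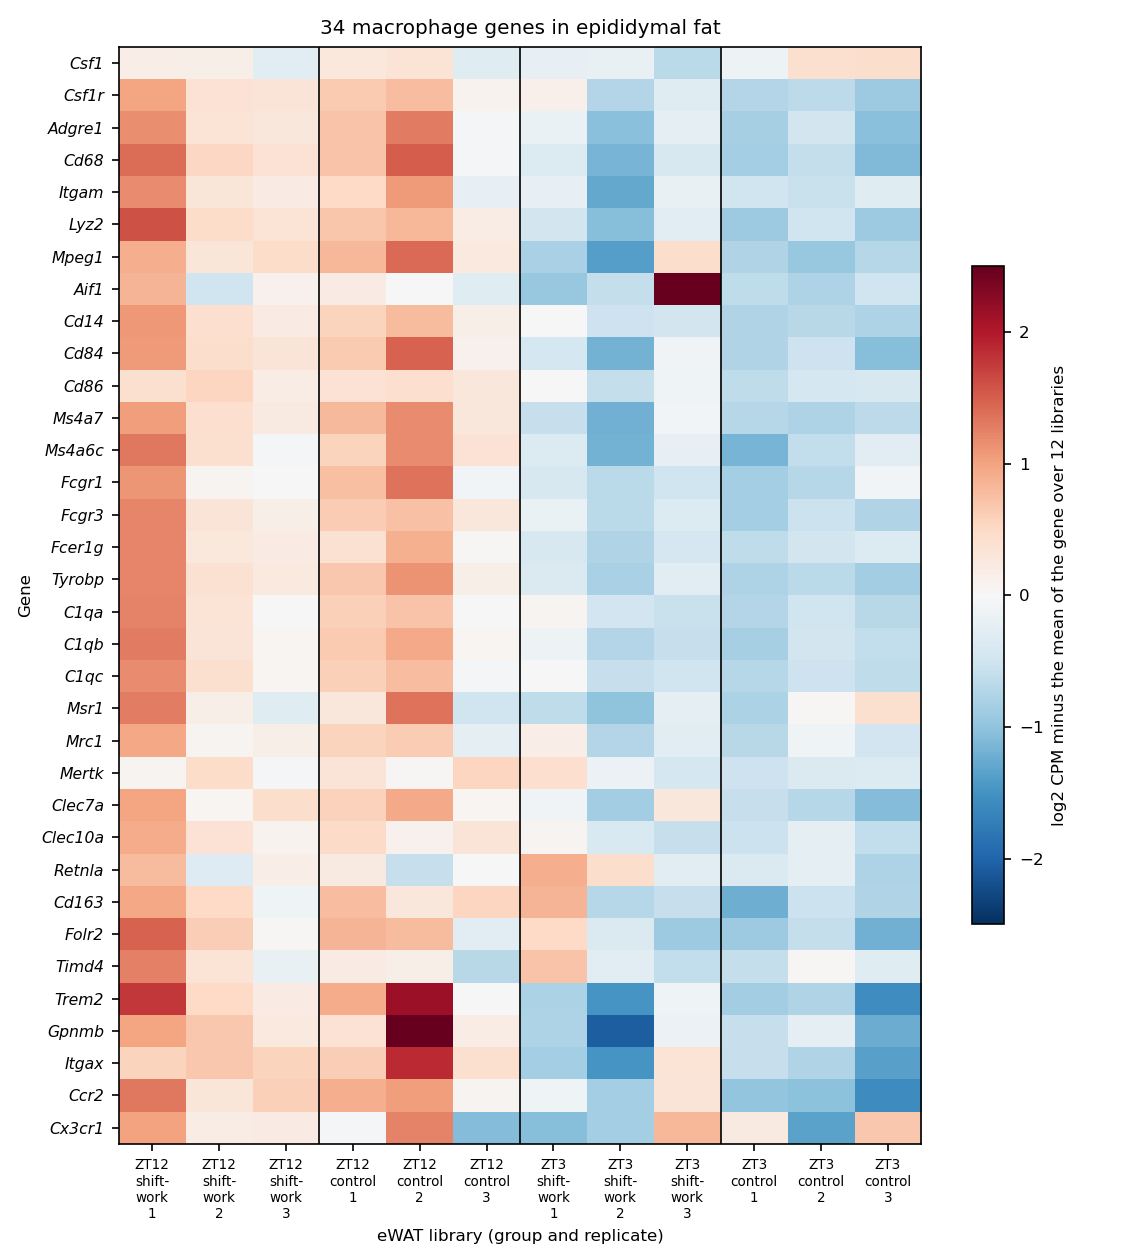
log2 CPM of the 34 macrophage genes in the 12 eWAT libraries, as the difference from each gene's mean over the 12 (red above, blue below; rows are genes, columns are libraries). The ZT12 columns are mostly red, and ZT3 shiftwork replicate 3 stands out for Aif1 (68.6 CPM). Differences past the ends of the colour bar take its end colour.

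The called genes lie on several chromosomes, and the bases upstream of those with a RefSeq promoter window (GRCm38.p6) are shown together with those of Trem2, which had the largest fold change. The window of Fcgr3 is chr1:171059404-171059553 (minus strand), that of Cd84 chr1:171839547-171839696 (plus), that of Ccr2 chr9:124102033-124102182 (plus), that of Ms4a7 chr19:11336147-11336296 (minus) and that of Trem2 chr17:48346251-48346400 (plus). Each run reads 5′ to 3′ over the 150 bases that end at the gene's start, and capitals mark GAGGAA or its reverse complement TTCCTC, the core bound by PU.1 and other ETS factors of myeloid cells.
Fcgr3: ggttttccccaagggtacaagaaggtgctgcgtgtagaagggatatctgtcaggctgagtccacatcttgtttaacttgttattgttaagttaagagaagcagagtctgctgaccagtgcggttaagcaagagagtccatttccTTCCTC
Ccr2: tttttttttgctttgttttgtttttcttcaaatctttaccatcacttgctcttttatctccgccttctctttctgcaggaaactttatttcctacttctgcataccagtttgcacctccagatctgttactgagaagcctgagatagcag
Cd84: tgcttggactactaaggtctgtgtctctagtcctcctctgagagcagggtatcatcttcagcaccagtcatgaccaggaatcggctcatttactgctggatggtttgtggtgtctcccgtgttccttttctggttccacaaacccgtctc
Ms4a7: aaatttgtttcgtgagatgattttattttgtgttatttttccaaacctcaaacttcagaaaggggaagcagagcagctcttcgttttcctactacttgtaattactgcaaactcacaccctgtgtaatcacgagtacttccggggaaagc
Trem2: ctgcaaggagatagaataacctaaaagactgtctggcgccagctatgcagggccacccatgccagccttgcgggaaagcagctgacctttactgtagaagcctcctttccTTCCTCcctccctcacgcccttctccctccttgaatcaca
Within these windows Fcgr3 and Trem2 hold the motif once each, and Ccr2, Cd84 and Ms4a7 do not hold these letters. Over 250 bases upstream on both strands, 11 of the 26 panel genes with a window (42.3 percent) held GAGGAA, and 25.9 percent of all 27025 genes in the RefSeq table did. The E-box letters CACGTG, which the clock factors CLOCK and BMAL1 bind, were in 0 of the 26 windows and in 6.86 percent of all genes. The AP-1 letters TGACTCA were in 4 of 26 (15.4 percent) and in 5.16 percent of all genes. A match describes the letters only, and binding was not measured.

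Under shiftwork, the same time of day difference had the same direction in most of the panel, but no gene passed the test. Of the 34 genes, 32 were positive, as 46.4 percent of all genes were, the median log2 fold change was 0.96, against -0.03 over all genes, and Aif1 (-1.42 ± 0.88) and Retnla (-0.15 ± 0.35) were negative. Without ZT12 shiftwork replicate 1 the median was 0.60, again with 32 positive. edgeR called 0 of the 34 and 0 of all genes (0 percent), with adjusted p of 0.28 or more. At an unadjusted p under 0.05 the count was 20 of 34, where 16.3 percent of all genes passed. DESeq2 called 6, where it called 2.11 percent of the genes it tested: Lyz2 (1.46 ± 0.35, DESeq2 adjusted p = 0.00817), Fcer1g (1.14 ± 0.31), Tyrobp (1.12 ± 0.32), Fcgr3 (1.0 ± 0.29), Cd68 (1.40 ± 0.42) and Cd14 (0.90 ± 0.27). In 20 genes all ZT12 shiftwork libraries lay above all ZT3 shiftwork libraries, which held for 9.05 percent of all genes, and 0 genes lay below (7.59 percent).

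Library by library, Lyz2 stood at 1087, 494 and 457 CPM in ZT12 shiftwork eWAT, against 263, 173 and 294 CPM in ZT3 shiftwork eWAT. Tyrobp stood at 97.6, 54.1 and 49.4 CPM at ZT12 under shiftwork, against 32.4, 23.8 and 34.7 CPM at ZT3. ZT12 shiftwork replicate 1 was the highest of its group in both, as it was the highest of all 12 eWAT libraries for 18 of the 34 genes. Aif1 stood at 14.7, 5.81 and 8.8 CPM in ZT12 shiftwork eWAT, against 4.27, 5.44 and 68.6 CPM in ZT3 shiftwork eWAT. The value of 68.6 CPM came from replicate 3, which also held 5817 CPM of spermatid markers. Without that replicate the log2 fold change of Aif1 was 0.99, and the part of spermatid RNA in its level was not tested. Mpeg1 was also highest in that ZT3 shiftwork library, at 196 CPM against 82.6 and 55.8 CPM in the other two.

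No gene of the panel passed the test of whether the time difference depended on schedule. The interaction, time difference under shiftwork minus time difference in controls, was negative for 26 of 34 genes and positive for 8, where 42.9 percent of all genes were positive, with a median of -0.30 against -0.07 over all genes. edgeR called 0 of the 34 (0 percent of all genes, lowest adjusted p 0.521), 0 of the 34 had an unadjusted p under 0.05, where 10.1 percent of all genes did, and DESeq2 called 0, where it called 1.36 percent of the genes it tested. Ccr2 had the smallest p (-0.96 ± 0.52), with log2 fold changes over time of 0.95 ± 0.37 under shiftwork and 1.90 ± 0.38 in controls. For Cd163 the difference was 0.47 ± 0.42 under shiftwork and 1.37 ± 0.42 in controls, and for Lyz2 1.48 ± 0.35 under shiftwork and 1.35 ± 0.35 in controls. With the 3 ZT3 libraries left out, the median of the interaction was -0.06 and 15 of 34 genes were positive. With 1 library left out the median lay between -0.67 (without ZT12 shiftwork replicate 1) and -0.06 (without ZT12 control replicate 2), with -0.46 without ZT12 control replicate 3, -0.45, -0.15 and -0.17 without ZT3 shiftwork replicate 2, 1 and 3, and -0.14 without ZT12 shiftwork replicate 3.

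**Figure D3:**
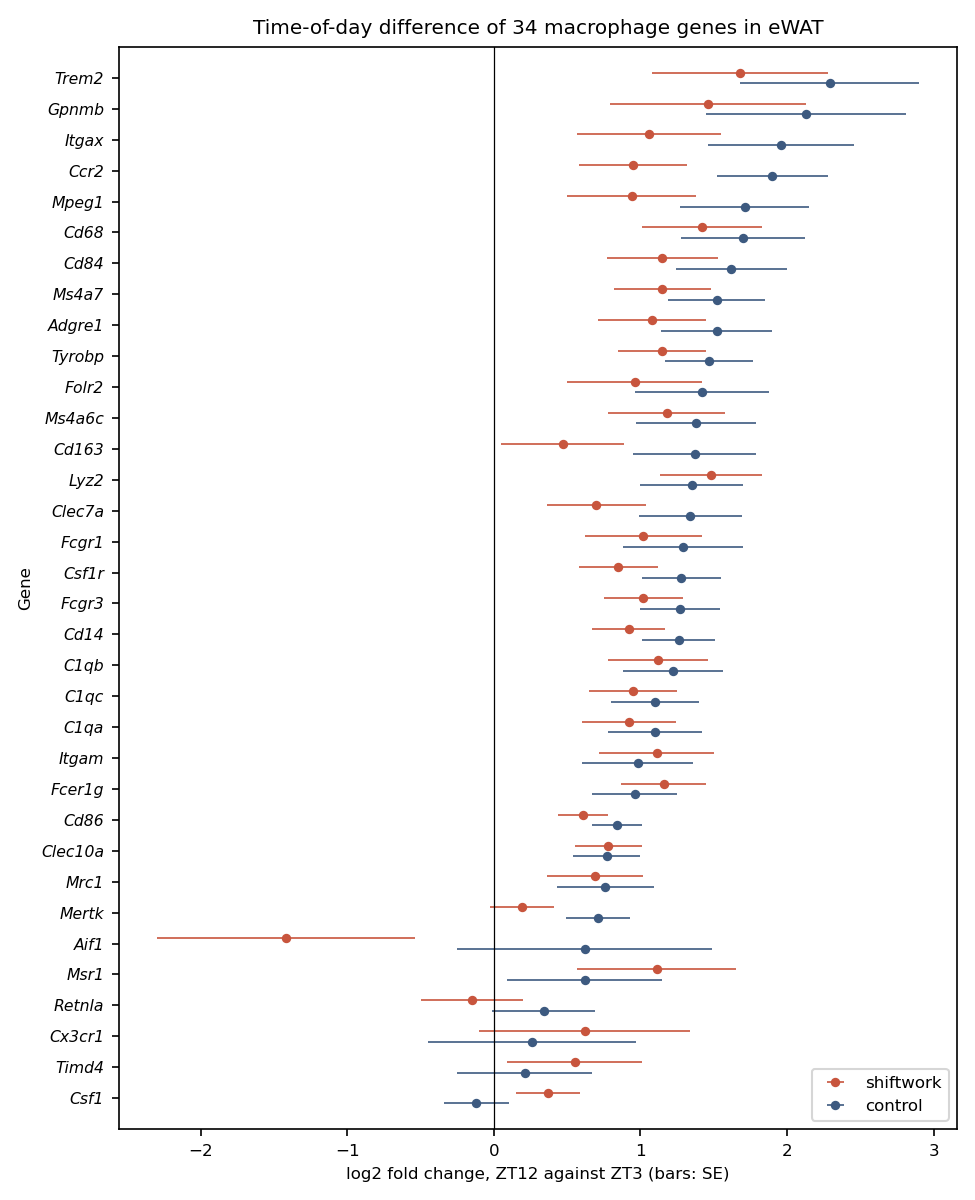
log2 fold change between ZT12 and ZT3 in eWAT for the 34 macrophage genes, under shiftwork (red) and in controls (blue), with SE bars. Genes are sorted by the control value; Trem2, Gpnmb and Itgax lead, and Aif1 under shiftwork (-1.42) lies farthest to the left.

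Between schedules at ZT3, most of the panel differed little. In shiftwork eWAT at ZT3, 27 of 34 genes were above controls, where 56.9 percent of all genes were, and the median log2 fold change was 0.30, against 0.06 over all genes. edgeR called 0 of the 34 and 0 percent of all genes (lowest adjusted p 0.219), and DESeq2 called 0, where it called 4.52 percent of the genes it tested. At an unadjusted p under 0.05 there were 4 genes, Ccr2, Csf1, Aif1 and Retnla, where 18.8 percent of all genes passed. Ccr2 stood at 81.1, 49 and 109 CPM in shiftwork eWAT, against 44.2, 43.1 and 29.6 CPM in controls (1.03 ± 0.37, edgeR adjusted p = 0.219). Csf1 stood at 81.4, 82 and 58.8 CPM in shiftwork eWAT, against 85.8, 123 and 127 CPM in controls (-0.59 ± 0.22, edgeR adjusted p = 0.219). Neither pair of groups overlapped. Retnla stood at 441, 322 and 195 CPM in shiftwork eWAT, against 184, 201 and 139 CPM in controls, overlapping at the lower end (0.87 ± 0.35, edgeR adjusted p = 0.231). Aif1 (2.30 ± 0.91) had a log2 fold change of -0.13 without shiftwork replicate 3. All shiftwork libraries lay above all controls for Ccr2 and Cd14 (2 genes, where 7.64 percent of all genes did so) and below for Csf1 (1 gene, where 4.33 percent did so). With the 3 ZT3 libraries left out, the median of the 34 was 0.06, 18 were positive, and Ccr2 was at 0.58 ± 0.54. The median was 0.16 without shiftwork replicate 1, 0.45 without shiftwork replicate 2 and 0.19 without shiftwork replicate 3.

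At ZT12 the schedules could not be separated in any gene of the panel. The median log2 fold change of shiftwork over control was 0.04, with 18 of 34 positive (49 percent of all genes), and all 34 genes overlapped between the groups. All shiftwork libraries lay above all controls for 0 of the 34 (5.91 percent of all genes) and below for 0 (6.55 percent). edgeR called 0 of the 34 and 0 percent of all genes, with adjusted p of 1 throughout. None of the 34 had an unadjusted p under 0.05 (0 of 34, where 2.34 percent of all genes did), and DESeq2 called 0, where it called 0.0493 percent of its genes. The 3 lipid-associated genes were all negative, with Gpnmb at -0.83 ± 0.66 and values of 116, 92.7 and 69.1 CPM in shiftwork eWAT, against 74.3, 351 and 66.2 CPM in controls. Control replicate 2 alone lay above the shiftwork libraries. The split of 18 positive genes turned on single libraries: 32 were positive without control replicate 2, 6 without control replicate 3, 3 without shiftwork replicate 1 and 27 without shiftwork replicate 3. Timd4 had the largest positive value (0.66 ± 0.46), at 8.83, 4.67 and 3.22 CPM in shiftwork eWAT, against 4.23, 4.06 and 2.28 CPM in controls.

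The resident, lipid-associated and monocyte sets were then compared library by library over the 6 groups, with eWAT here and iWAT further below. In eWAT the resident gene Cd163 stood at 177, 127 and 83.7 CPM in ZT12 shiftwork, 155, 110 and 132 CPM in ZT12 controls, 164, 55.1 and 61 CPM in ZT3 shiftwork and 39, 62 and 53.5 CPM in ZT3 controls. Folr2 stood at 100, 55.1 and 37 CPM in ZT12 shiftwork, 65.2, 62.2 and 29.9 CPM in ZT12 controls, 51.4, 28.3 and 19.2 CPM in ZT3 shiftwork and 19.2, 24 and 15.7 CPM in ZT3 controls. ZT3 shiftwork replicate 1 was in the range of the ZT12 libraries for both. Timd4 was at 6.03 CPM there, but every ZT3 library, from 2.41 CPM up, lay in its ZT12 range of 2.28 to 8.83 CPM. Trem2 stood at 33.1, 13.7 and 11.1 CPM in ZT12 shiftwork and 5.56, 3.5 and 9.02 CPM in ZT3 shiftwork. Ccr2 stood at 219, 108 and 132 CPM in ZT12 shiftwork, so that its ZT12 shiftwork libraries overlapped the ZT3 shiftwork libraries by 1 CPM.

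Balance between the sets was taken as the mean log2 level of Trem2 and Gpnmb minus that of Cd163 and Folr2, read only across libraries of one depot. In eWAT it was -1.11, -1.23 and -1.01 in ZT12 shiftwork, -1.45, 0.56 and -1.31 in ZT12 controls, -2.73, -2.5 and -0.65 in ZT3 shiftwork and -0.93, -1.20 and -1.68 in ZT3 controls. The groups overlapped, ZT12 control replicate 2 was the highest library, and ZT3 shiftwork replicates 1 and 2 were the lowest. This balance leaves out Timd4, a choice made with the values known, and its 0 point depends on the genes taken. With Timd4 in the resident mean the same libraries were at the ends, at 2.01 in ZT12 control replicate 2 and at -1.42 and -1.26 in ZT3 shiftwork replicates 1 and 2, and 8 of 12 libraries were above 0. In that ZT12 control library 11 of the 34 genes had their highest eWAT level. Gpnmb was at 351 CPM there against 116 CPM in the next library, and Itgax at 91.5 CPM against 40.3 CPM. Ccr2 minus the mean of Cd163 and Folr2 was 0.72, 0.37 and 1.25 in ZT12 shiftwork, 0.71, 1.13 and 0.54 in ZT12 controls, -0.18, 0.31 and 1.67 in ZT3 shiftwork and 0.69, 0.16 and 0.03 in ZT3 controls, again overlapping.

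**Figure D4:**
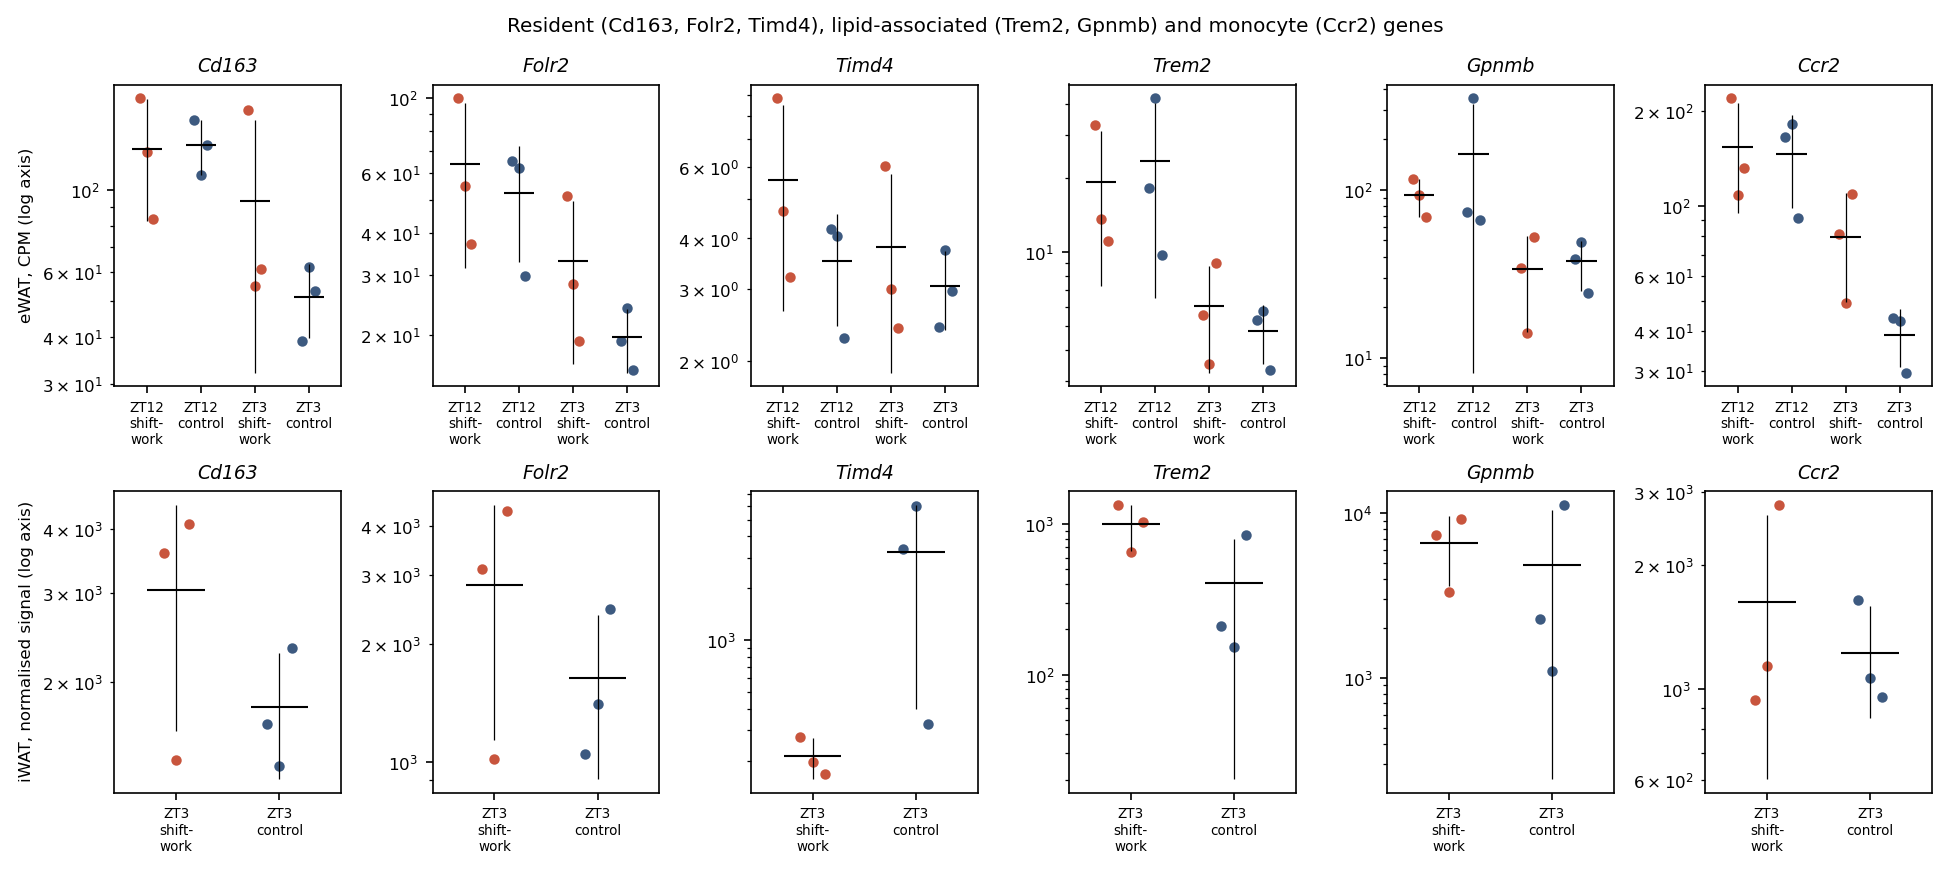
Levels of the resident (Cd163, Folr2, Timd4), lipid-associated (Trem2, Gpnmb) and monocyte (Ccr2) genes in eWAT (top, CPM) and iWAT (bottom, the authors' normalised signal), on log axes, with group means and SD (n = 3); SD bars that would reach close to 0 or below are cut short. In iWAT the 3 shiftwork libraries lie between 167 and 276 for Timd4, below all 3 controls, of which replicate 3 is at 325.

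Adipocyte marker levels differed between the libraries too. The summed CPM of 10 adipocyte markers was 15881 to 20471 in ZT12 shiftwork, 18831 to 23171 in ZT12 controls, 8570 to 22864 in ZT3 shiftwork and 11980 to 19761 in ZT3 controls. The lowest sums, 8570, 11980 and 12742 CPM, were in the libraries with spermatid or vas deferens transcripts, and fat cell content itself was not measured. Per 1000 CPM of adipocyte markers, the 34 genes summed to 358, 167 and 146 CPM in ZT12 shiftwork, 191, 255 and 118 CPM in ZT12 controls, 120, 73.2 and 260 CPM in ZT3 shiftwork and 126, 97.4 and 135 CPM in ZT3 controls. On that scale the ZT12 and ZT3 groups overlapped in both schedules, and ZT3 shiftwork replicate 3, the library with spermatid transcripts and the lowest adipocyte sum, was the second highest of the 12. The adipocyte markers may themselves differ with time of day, which was not tested. Lep, the most abundant of them in ZT3 controls, was at 2432, 4032 and 1886 CPM there. In ZT12 controls Lep was at 4967 and 5445 CPM in replicates 1 and 2, while Plin4 led in replicate 3, at 4474 CPM. Other white cells were read by their own markers. Dendritic cell markers summed to 33.7 to 44.8 CPM in ZT12 controls and 27.8 to 36.4 CPM in ZT3 controls, and neutrophil markers to 15.5 to 28.3 CPM in ZT12 controls and 24.3 to 46.8 CPM in ZT3 controls. Of the neutrophil sums of 46.8 and 42.2 CPM in ZT3 control replicates 1 and 3, the libraries with vas deferens transcripts, Mmp9 alone was 33 and 25.4 CPM. Replicate 2, at 24.3 CPM, lay within the ZT12 range. B and plasma cell markers summed to 35.3 to 36.6 CPM in ZT12 controls and 78.4 to 292 CPM in ZT3 controls, and the part of these cells in the macrophage values was not tested.

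Genes that work with the panel were read from lists set by function. Of all genes, 48.7 percent were positive between ZT12 and ZT3 in control eWAT, and 2.93 percent were called higher. The 559 calls of that comparison over all genes became 1 without ZT12 control replicate 1, a limit that the list calls share. In the control time comparison 12 of 12 genes of signalling from ITAM motifs, the docking sites of Fc receptors and TYROBP, were positive, with a median of 0.97. Of these, 3 rose: the kinases Syk (1.11 ± 0.25, edgeR adjusted p = 0.0448) and Lyn (0.80 ± 0.14, 0.0212) and the inhibitory receptor Pirb (1.57 ± 0.29, 0.0243). Of 5 tested genes of the CSF family, Csf1 among them, Csf2ra, a chain of the GM-CSF receptor (1.06 ± 0.14, edgeR adjusted p = 0.0164), and Il34, the second ligand of CSF1R (0.96 ± 0.18, 0.0255), rose. Of 12 macrophage transcription factors all were positive and 0 passed, with a median of 0.68. Spi1, which encodes PU.1, was at 1.07 ± 0.31 (edgeR adjusted p = 0.0806), Irf5 at 0.89 ± 0.23 and Runx1 at 1.02 ± 0.30. Among 16 further lipid-associated genes 13 were positive, with a median of 0.62, and Lipa, the lysosomal acid lipase, rose (1.35 ± 0.29, edgeR adjusted p = 0.0359).

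Lists of other macrophage states followed. Of 12 further resident genes 10 were positive in that comparison (median 0.58, 0 called), where 48.7 percent of all genes were, with Stab1 at 0.69 ± 0.26 and Pf4 at 0.71 ± 0.32. Of 10 further monocyte genes 6 were positive (median 0.10, 0 called), and of 8 alternative activation genes 6 (median 0.43, 0 called). Among 10 tested genes of classical activation, Ptgs2, the inducible cyclooxygenase, fell, with a log2 fold change of -10 ± 1.79 (edgeR adjusted p = 0.0232), with 11511 and 12114 CPM of vas deferens markers in 2 of its 3 ZT3 control libraries, and the part of those transcripts was not tested. Under shiftwork 0 genes of these lists passed in the time comparison. The 12 ITAM genes and the 12 transcription factors were all positive there (medians 0.81 and 0.47), as 46.4 percent of all genes were. At ZT12, shiftwork against control, the 12 further resident genes were all positive with a median of 0.52, where 49 percent of all genes were positive. edgeR called 0 of them. Of the panel's own 3 resident genes 2 were positive there, with Cd163 at -0.04 ± 0.42. The panel's sign count in this comparison turned on single libraries, and the lists were not read with libraries left out. In the same comparison 8 of 10 further monocyte genes were positive, also with a median of 0.52, and 3 of 16 further lipid-associated genes, with a median of -0.18, and 0 were called in either list. Among the further resident genes Cd209d (0.74 ± 0.41), Fcna (0.89 ± 0.63) and Cbr2 (0.56 ± 0.44) had the smallest p, each with an edgeR adjusted p of 1.

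In iWAT at ZT3 the panel showed no call between schedules either. Of the 34 genes, 25 had a positive log2 fold change, as 51.8 percent of all genes did, the median log2 fold change was 0.45, against 0.02 over all 16387 genes tested, and the range ran from -3.17 for Timd4 to 1.68 for Trem2. The median turned on single libraries, at -0.06 with 15 of 34 genes positive without shiftwork replicate 3 and at 0.89 with 28 positive without shiftwork replicate 2. limma on log2(value + 1) called 0 of the 34 and 0 percent of all genes (lowest adjusted p 0.688). At an unadjusted p under 0.05 there were 2 genes, Timd4 and Trem2, where 6.68 percent of all genes passed. DESeq2 on the recovered reads called 1, Timd4 (-3.94 ± 0.84, DESeq2 adjusted p = 0.0011), where it called 2.84 percent of the genes it tested. All shiftwork libraries lay above all controls for 0 genes of the panel (7.34 percent of all genes) and below for 1, Timd4 (5.59 percent).

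Timd4 stood at 276, 196 and 167 in shiftwork iWAT, against 3396, 6015 and 325 in control iWAT (normalised signal). Control replicates 1 and 2 were more than 10 times the third, which lay just above the shiftwork libraries. The log2 fold change was -3.17 ± 1.04 (limma adjusted p = 0.688). In the authors' deposited table, whose sign matched shiftwork over control, Timd4 had a log2 fold change of -3.08 with an adjusted p of 0.00227, the one gene of the panel past 0.05 there, where 1.43 percent of all genes were (426 of 29819). Cx3cr1 stood at 157, 148 and 153 in shiftwork iWAT, against 419, 821 and 49.6 in controls, with the same 2 controls highest (-0.76 ± 0.98). Cd86 stood at 312, 263 and 471 in shiftwork iWAT, against 1004, 1272 and 339 in controls (-1.16 ± 0.53).

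Trem2 and Gpnmb were low in control replicates 1 and 2, where Timd4 was high. Trem2 stood at 1334, 653 and 1031 in shiftwork iWAT, against 209, 153 and 852 in controls (1.68 ± 0.66, limma adjusted p = 0.688). Gpnmb stood at 7333, 3342 and 9176 in shiftwork iWAT, against 2267, 1097 and 11256 in controls (1.0 ± 0.87). Control replicates 1 and 2 were the lowest of the 6 libraries for both, and control replicate 3 lay among or above the shiftwork libraries. Itgax, the third lipid-associated gene, was not low in those libraries, at 1633, 861 and 652 in shiftwork iWAT, against 920, 1384 and 551 in controls (0.13 ± 0.45). The balance of Trem2 and Gpnmb over Cd163 and Folr2 was -0.09, 0.30 and -0.46 in shiftwork iWAT, against -0.94, -1.76 and 0.37 in controls, with the groups overlapping. With Timd4 in the resident mean it was 1.11, 1.17 and 1.09 in shiftwork iWAT, against -1.39, -2.46 and 1.33 in controls. Ccr2 stood at 940, 1137 and 2801 in shiftwork iWAT, against 1645, 1062 and 953 in controls (0.28 ± 0.45). Ccr2 minus the mean of Cd163 and Folr2 was -1.83, -0.07 and -0.60 in shiftwork iWAT, against 0.32, -0.38 and -1.33 in controls, overlapping too.

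Control replicates 1 and 2 were the libraries with lymphoid transcripts. Beside the B and plasma cell sums of 41247 and 66134, T and NK cell markers summed to 719 to 1009 in shiftwork iWAT, against 11473, 22623 and 502 in control replicates 1 to 3. Dendritic cell markers summed to 1690 to 1854 in shiftwork iWAT, against 4904, 8883 and 1970 in controls. All 10 B and plasma cell markers were above a signal of 10 in shiftwork replicates 1 and 2 and in every control library, and 7 of 10 in shiftwork replicate 3. With control replicates 1 and 2 left out, a fit with 1 control that assumes it varies like the shiftwork libraries, the log2 fold change was -0.64 ± 0.42 for Timd4, 0.18 ± 0.46 for Trem2 and -0.89 ± 0.64 for Gpnmb, each with limma adjusted p = 0.999. Without control replicate 3 instead, 2 genes of the panel were called, Timd4 at -4.43 ± 0.34 (limma adjusted p = 0.0156) and Trem2 at 2.42 ± 0.35 (0.0385), among 360 genes in all.

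**Figure D5:**
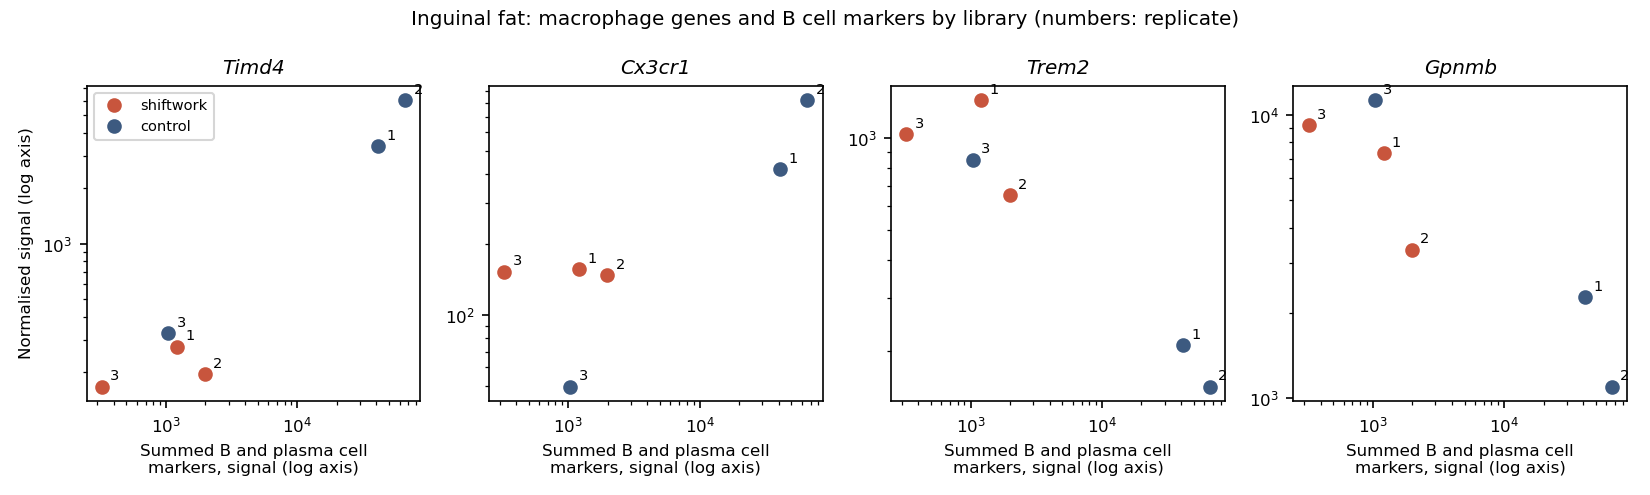
Normalised signal of Timd4, Cx3cr1, Trem2 and Gpnmb in the 6 iWAT libraries against the summed signal of 10 B and plasma cell markers in the same library, on log axes. Control replicates 1 and 2 lie alone to the right, at sums of 41247 and 66134, high for Timd4 and Cx3cr1 and low for Trem2 and Gpnmb.

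The rest of the panel overlapped between schedules in iWAT. Shiftwork replicate 3 had the highest of the 6 values in 22 of the 34 genes and shiftwork replicate 2 the lowest in 17, so the shiftwork libraries spanned the controls. Lyz2 stood at 23471, 11009 and 32823 in shiftwork iWAT, against 19683, 31148 and 15389 in controls (-0.05 ± 0.47). Fcgr1 stood at 500, 324 and 4563 in shiftwork iWAT, against 456, 468 and 471 in controls (0.96 ± 0.95). Ms4a6c was at 3274 in shiftwork replicate 3, against 419 and 310 in the other shiftwork libraries and 384 to 1017 in controls. Neutrophil markers summed to 1350, 871 and 6162 in shiftwork iWAT, against 1761, 3255 and 1212 in controls. Mast cell markers summed to 4839, 3122 and 12028 in shiftwork iWAT, against 7415, 8356 and 8512 in controls. Both sums were highest in shiftwork replicate 3 and lowest in replicate 2, and the part of these cells in the panel's values was not tested. Csf1r (0.05 ± 0.32) and Mertk (-0.04 ± 0.14) lay near 0, as Lyz2 did, and the C1q chains ran from 0.43 to 0.59. Msr1 (-0.04 ± 0.81) was spread widely, at 231, 342 and 1994 in shiftwork iWAT, against 853, 453 and 441 in controls. The 3 resident genes split, with Cd163 (0.65 ± 0.44) and Folr2 (0.65 ± 0.59) positive. Cd163 stood at 3591, 1408 and 4096 in shiftwork iWAT, against 1656, 1372 and 2336 in controls. Folr2 stood at 3105, 1017 and 4375 in shiftwork iWAT, against 1049, 1400 and 2453 in controls. In the lists around the panel, 14 of 16 further lipid-associated genes were positive (median 0.65, 0 called), where 51.8 percent of all genes were. Among them Ctsl was at 0.93 ± 0.22, Dcstamp at 1.98 ± 0.49 and Lgals3 at 1.27 ± 0.42. Other lists were positive too, with 9 of 12 further resident genes (median 0.52) and 6 of 10 further monocyte genes (median 0.93). So were 7 of 8 alternative activation genes (median 0.37) and 7 of 10 classical activation genes (median 0.26). Of 12 macrophage transcription factors 6 were positive (median 0.02), and 0 genes were called in any of these lists. The lists in iWAT were not read with libraries left out. Of 12 ITAM genes 2 were positive (median -0.57, 0 called). Ptpn6 (-1.32 ± 0.92), Btk (-1.01 ± 0.74) and Plcg2 (-1.13 ± 0.85), which B cells also express, had the smallest p of the ITAM genes. Whether the shiftwork difference of any gene depended on depot was not tested, since the 2 tables were normalised separately.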

How the data were processed

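White fat was measured by RNA sequencing (single reads of 51 cycles, per the labels). STAR and HTSeq, the test packages DESeq2, edgeR and limma, and the builds mm10 and GRCm38 are listed per the submitters' processing notes, and versions, roles and the strand used in counting are not given in the sources used here. For eWAT the authors deposited whole-number read counts and log2 FPKM. For iWAT the table the authors deposited as read counts holds normalised signal, RPKM is deposited beside it per the file headers, and the authors also deposited a p-value and a log2 fold change for each gene.

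eWAT counts were fitted with edgeR 4.0.16 (R 4.3.3; TMM, quasi-likelihood, robust; filterByExpr with minimum count 10 and minimum total 15) on 12 libraries in 4 groups, testing 15141 genes. The SE of a fold change is its size over the square root of F. iWAT signal was fitted with limma 3.58.1 (trend, robust) on log2(value + 1) for genes of at least 10 in 3 or more libraries, 16387 in all, and the pseudocount understates changes of low genes. Dividing iWAT values by the step of each library gave whole reads for 100 percent of 310956 values (tolerance 1e-06), and edgeR and DESeq2 1.42.0 were run on these as alternatives. Calls are at a Benjamini-Hochberg adjusted p under 0.05 over all genes tested. Fits were tested on simulated data with known changes. The simulation gave all genes the same spread and held no library that stood apart, so it cannot tell how the fits behave on these libraries.

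The 34 genes, the lists around them, the marker lists of other cells and the libraries left out were chosen with earlier results of these data known. Named beyond the 34 are list genes past the test and otherwise up to 3 with the smallest p per list and comparison. Leaving out iWAT control replicates 1 and 2 was chosen after seeing the data. Itgam has 2 identifiers in the iWAT table, and the one that the reference pairs with the symbol was used. Reads of Lyz2, Clec10a, Fcgr3 and the Ms4a genes may be shared with close relatives. Same-numbered replicates did not deviate together, so they were not treated as pairs.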

Additional observations from a re-analysis of the deposited data

How the results depend on the processing

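Of 34 macrophage genes, 8 were called between ZT12 and ZT3 in control eWAT. RLE size factors gave 7, no filter on low counts 7, DESeq2 26, the fit without the 3 ZT3 libraries 0 (619 of all genes), and fits that leave out 1 library from 0 to 25. Over all genes the count of 559 became 2168 with DESeq2 and 320 with no filter, and ran from 1 to 2744 when 1 library was left out. For the other comparisons, where edgeR or limma called 0 genes of all, DESeq2 called 629 at ZT3 between schedules, 7 at ZT12, 287 over time under shiftwork, 189 for the interaction and 445 in iWAT. Without the 3 ZT3 libraries the counts were 9 at ZT3, 75 over time under shiftwork and 7 for the interaction. Leaving out 1 library gave 0 to 403 at ZT3, 0 to 186 for the interaction and 0 to 360 in iWAT. Of the panel, DESeq2 called 6 over time under shiftwork and 1 in iWAT, and leaving out 1 iWAT library gave 0 to 2. The cause was not tested.

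Replicate numbers were also fitted as a replicate block. Same-numbered libraries of different groups did not deviate together (correlations from -0.437 to 0.31 in eWAT and -0.168 to 0.0285 in iWAT), so the block rests on numbers alone. It called 3 of the panel in the control time comparison, Cd14 and Csf1r of the 8 and also Folr2, and 298 genes of all, 0 of the panel elsewhere, and moved Gpnmb at ZT3 between schedules to 0.02.

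Some log2 fold changes of single genes changed sign. Without the 3 ZT3 libraries, Aif1 was at -0.0029 and Trem2 at -0.36 at ZT3 between schedules, Timd4 at -0.13 over time in controls, and Aif1 at 0.98 and Mertk at -0.01 over time under shiftwork. Without iWAT control replicates 1 and 2, Folr2 was at -0.03 and Gpnmb at -0.89, and with any 1 iWAT library left out both stayed positive. When 1 library was left out, values at ZT3 between schedules ran from -0.13 to 2.81 for Aif1, -0.16 to 0.57 for Timd4, -0.10 to 0.60 for Trem2 and -0.65 to 0.21 for Gpnmb. Over time in controls they ran from -0.28 to 0.03 for Csf1, -0.02 to 0.94 for Msr1 and -0.55 to 0.65 for Cx3cr1, over time under shiftwork from -1.94 to 0.99 for Aif1 and -0.49 to 0.14 for Retnla, and in iWAT from -0.20 to 0.59 for Ccr2. Each of the 34 genes had at least 43 reads in every library.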
